A study of Mus musculus with 4 samples.

Results

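Glycosaminoglycans are the sulfated sugar chains that give cartilage its charge and its resistance to compression. The genes described here are 40 enzymes and transporters that build and sulfate chondroitin, dermatan and heparan chains, out of 24532 genes in an RNA-seq table of mouse articular cartilage. They were taken by gene symbol, and all 40 symbols were found. They were divided by role into 6 genes of the linker that joins a chain to its core protein, 15 genes of chondroitin and dermatan sulfate, 14 genes of heparan sulfate, and 5 genes that supply sulfate and sugar donors.

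Chain synthesis takes place in the Golgi. A xylose-led linker is attached to a serine of the core protein, polymerases extend it with alternating sugars, and sulfotransferases place sulfate at defined positions using the donor PAPS. Chondroitin sulfate on aggrecan holds water in cartilage, whereas heparan sulfate on cell surface and matrix core proteins binds growth factors, and defects in several of these genes cause skeletal dysplasias.

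The samples were articular cartilage of wild-type male C57BL/6 mice in 4 groups with 1 library each, in which young or adult mice had either sham surgery or an injury. Young mice were 3 weeks old, and adult mice were 10 weeks old by the methods, 12 weeks by the sample titles and 14 weeks by the sample characteristics. Injured cartilage was collected 3 days after surgery, which the methods describe as a full-thickness cartilage injury made with a needle in the patellar groove of the left knee and the labels call DMM surgery. The adult sham sample is marked day 3 to 14. Each library was a pool, of 10 injured or 5 uninjured mice, so that the spread between animals is unknown and the differences have no check in replicates. No p-value or standard deviation is therefore given, and comparisons are described by their size beside the same measure over all genes. A pool of whole dissected cartilage also does not separate the injured site from the tissue around it.

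The values were FPKM, fragments per kilobase of transcript relative to the mapped fragments of the library, which are per length and so can be compared between genes. If the smallest regular step of FPKM times transcript length is 1 fragment, the libraries held between 25588500 and 30788200 fragments. All 14 measured chondrocyte markers were at 1 FPKM or more in every library, with sums from 19672 to 59291 FPKM. The highest sum was that of adult sham, where Cytl1 and Chad alone were at 26541 and 20538 FPKM. Of the 14 markers, 9 were 2-fold or more lower and 3 higher there than in young sham. The adult sham library stood apart from the others, since its 10 most abundant genes held 26.5% of the summed FPKM against 14.7% to 17.5% elsewhere, and the nuclear RNA Neat1 was at 0.828 FPKM against 234.1 to 518.1. It is a term of both the adult injury comparison and the age comparison of the shams. The first cannot be given without it, and the second can be set beside the age comparison of the injured libraries.

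Markers of other cells moved with injury. The summed level of 12 macrophage markers was 196.4 FPKM without and 1957 FPKM with injury in young mice and 330.2 and 1691 FPKM in adult mice, and all 12 were at least 2-fold higher at both ages. The 8 fibroblast markers summed to 1623 and 3762 FPKM in the young libraries and to 1145 and 3397 in the adult ones, and the 6 endothelial markers to 14.9 and 74.6 and to 16.8 and 61.6. The chondrocyte markers had an injury ratio (log2) with a median of −0.26 at the young and 0.34 at the adult age. In bulk tissue, fewer cells of a type and less RNA per cell cannot be told apart, and the part of the other cells in the ratios below was not tested.

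All 40 genes were above 0 FPKM in all 4 libraries, and 37 were at 1 FPKM or more in all of them. Across the 4 libraries, with the young sham and injured libraries first and the adult sham and injured libraries after them, the 40 genes together summed to 1033, 864.6, 755.4 and 908.1 FPKM. The chondroitin genes made up 31.7%, 32.2%, 48.4% and 43.6% of that sum, and the supply genes 31.7%, 35.9%, 15.3% and 24.2%. The adult libraries thus held a larger share of chondroitin transcripts and a smaller share of supply transcripts than the young ones, whereas the linker genes stayed between 12.2% and 15.1% and the heparan genes between 18.8% and 22.6%. The PAPS synthase Papss2 was the most abundant member in both young libraries and the chondroitin 4-O-sulfotransferase Chst11 in adult injured cartilage. In adult sham cartilage the highest level was that of Csgalnact2, at 81.8 FPKM. The lowest mean was that of Chst13, a minor 4-O-sulfotransferase, which reached 1 FPKM in no library.

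**Figure D1:**
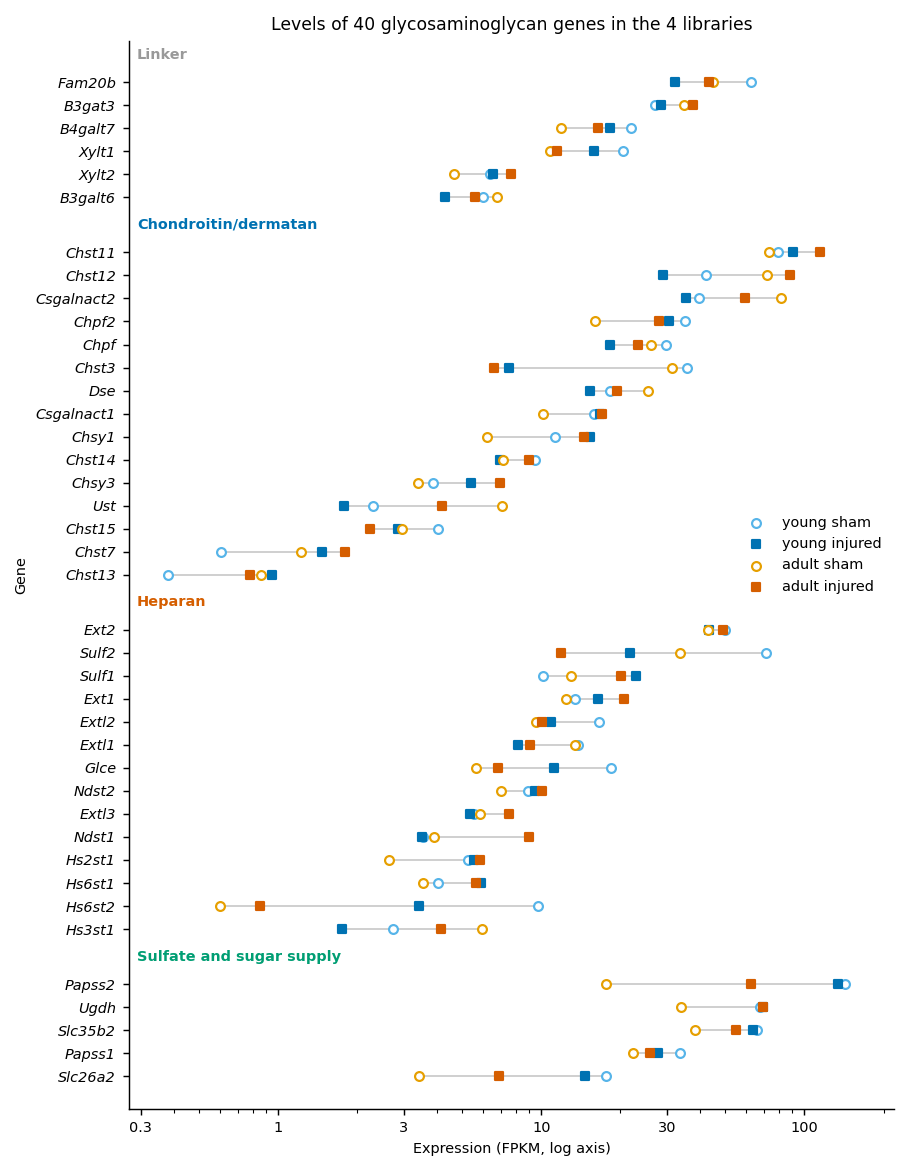
Expression of the 40 genes in FPKM on a log axis, by role and, within a role, in order of mean level. Open circles are sham and filled squares injured libraries, in blue for young and orange for adult, and the grey line spans the 4 libraries. Chst3 has both injured libraries far to the left of both shams, whereas Papss2, Slc26a2 and Hs6st2 have both adult libraries to the left of both young ones.

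Injury was compared with sham cartilage within each age as the log2 ratio of FPKM + 1. A gene was counted as higher or lower at a ratio of 2-fold or more, over the 18181 genes above 0 in at least 1 library. The added 1 FPKM understates the ratios of genes with low values. In young cartilage 1 of the 40 genes, Sulf1, was higher after injury, against 4.57% of all genes. Chst3, Hs6st2 and Sulf2, 3 of the 40, were lower, against 1.27% of all genes. In adult cartilage 4 of the 40 were higher, namely Chsy1, Ndst1, Papss2 and Ugdh, against 6.9% of all genes, and 2 were lower, Chst3 and Sulf2, against 1.46%. The remaining 36 and 34 genes stayed within 2-fold. The median ratio of the 40 genes was −0.19 in young and 0.29 in adult cartilage, where that of the 10891 genes at 1 FPKM or more in every library was −0.04 and 0.23. Scaling moved the ratios. Median-of-ratios scaling, which sets each library to its median gene, moved the adult injury ratios by a median of −0.30 and those of adult against young sham by 0.39, and the young injury ratios by −0.02. Under it, 802 of all genes were higher and 527 lower after adult injury, where 1255 were higher and 266 lower as deposited, and of the 40 genes 1 was higher, Papss2, and 2 lower. It brought the adult median of the 40 genes to 0.0082, quantile normalization brought it to −0.0013, and 8 of the 40 genes changed the sign of their adult injury ratio under each, all with a ratio of at most 0.33 as deposited.

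Of the 40 genes, 13 were above their sham at both ages and 11 below it at both ages, 15 were below it in young and above it in adult cartilage, and 1, Chst13, showed the opposite. Of the 10891 genes, 3875, 2084, 3940 and 992 did so in the same order. The ratio was larger in adult than in young cartilage for 34 of the 40 genes, or 85%, whereas the same held for 71.5% of the 10891 genes. After median-of-ratios scaling it was 26 of the 40 and 47.2% of the genes. After quantile normalization it was 27 of the 40 and 50.7% of the genes, and after rescaling to the same sum (TPM) 35 of the 40 and 83.2%.

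**Figure D2:**
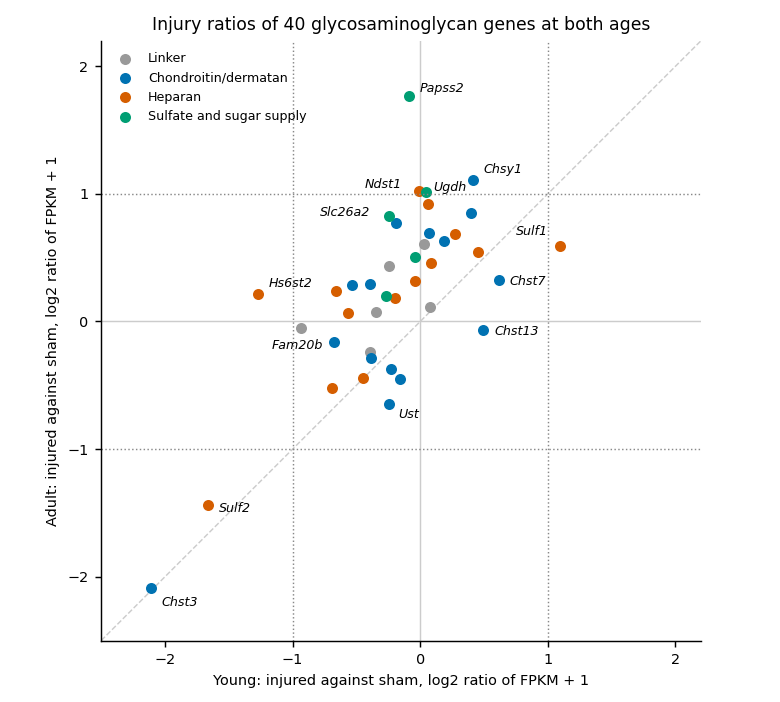
Log2 ratio of FPKM + 1, injured against sham, in young (x axis) and adult (y axis) cartilage, with 1 point per gene coloured by role. Dotted lines mark 2-fold and the dashed line equal ratios. Chst3 lies on the dashed line near −2.1 on both axes with Sulf2 next to it, Papss2 lies near 0 in young and at 1.77 in adult cartilage, and 34 of the 40 points lie above the dashed line.

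The linker genes stayed within 2-fold after injury at both ages with values as deposited. Xylt1 and Xylt2 start the chain by adding xylose, and Xylt1 was the more abundant in all 4 libraries, at 20.5, 15.8, 10.8 and 11.4 FPKM in the order given above. Xylt2 was at 6.41, 6.56, 4.67 and 7.64 FPKM. The share of Xylt1 in the sum of both was 76.2%, 70.7%, 69.8% and 60.0%, and so was lower in the injured library at each age. B4galt7 and B3galt6, which add the galactoses, ranged from 11.9 to 21.9 and from 4.31 to 6.77 FPKM, and B3gat3, which adds the closing glucuronic acid, from 27.0 to 37.7 FPKM. Fam20b, the kinase that phosphorylates the linker xylose, had the largest injury ratio of the 6. It was at 62.7 FPKM in young sham and 32.3 in young injured cartilage, a log2 ratio of −0.93 that is just short of 2-fold and came to −1.06 after rescaling to the same sum. The adult sham and injured libraries held 45.0 and 43.5 FPKM, a ratio of −0.05, so that the lower level was seen in young injured cartilage. The median of the 6 linker genes was −0.30 in young and 0.09 in adult cartilage, and the adult median became −0.23 after median-of-ratios scaling and −0.15 after quantile normalization.

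Among the chondroitin and dermatan genes, Chst3 stood apart. It encodes the main chondroitin 6-O-sulfotransferase, and loss of the human gene causes a spondyloepiphyseal dysplasia with joint dislocations. Its level was 35.8 and 7.53 FPKM in the young sham and injured libraries and 31.3 and 6.60 FPKM in the adult ones. Both shams were above both injured libraries, and the FPKM was 4.75-fold lower after injury at both ages. The log2 ratios were −2.11 and −2.09, and over the 3 other scalings they lay between −2.29 and −2.11 in young and between −2.41 and −2.07 in adult cartilage. Adult against young, its ratios were −0.18 in the shams, where the sign changed with scaling, and −0.17 in the injured libraries.

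The second 6-O-sulfotransferase, Chst7, was at 0.607 and 1.46 FPKM in the young sham and injured libraries and 1.22 and 1.79 FPKM in the adult ones. Its log2 ratios were 0.62 in young and 0.33 in adult cartilage, the latter below 0 after quantile normalization, and its level was below that of Chst3. The share of Chst3 in the sum of both enzymes was 98.3%, 83.7%, 96.2% and 78.7% in the usual order. The values of Chst7 rest on few fragments, an estimated 35.3 to 101.1 per library, against 1032 to 5895 for Chst3.

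Sulfate at the neighbouring 4-O position is placed by Chst11, Chst12 and Chst13. Chst11, which is needed for cartilage growth plate architecture in mice, was at 79.5, 90.7, 73.5 and 114.4 FPKM, within 2-fold of its sham with log2 ratios of 0.19 and 0.63. Chst12 was at 42.2, 28.9, 72.2 and 88.1 FPKM, so that its ratio was −0.53 in young and 0.28 in adult cartilage, the latter below 0 after median-of-ratios scaling. In the injured libraries Chst12 was 3.05-fold higher in adult than in young cartilage, a log2 ratio of 1.58 and the largest upward age ratio of the 40 genes there. Chst13 lay between 0.382 and 0.945 FPKM, an estimated 16.6 to 43.8 fragments. The FPKM of Chst3 and Chst7 together made up 23.0% of the sum over all 5 of these 6-O and 4-O sulfotransferases in the young sham library and 6.94% in its injured counterpart, against 18.2% and 3.97% in the adult libraries. This grouping was chosen after the values of Chst3 were known. The lower share after injury restates the level of Chst3, and sulfation of the chains themselves was not measured.

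The enzymes that start and extend chondroitin chains differed from each other. Csgalnact1 and Csgalnact2 add the first N-acetylgalactosamine and thereby commit the linker to chondroitin. Csgalnact1 was at 15.9, 16.7, 10.2 and 17.1 FPKM, with adult sham below the other 3 libraries, and Csgalnact2 at 39.7, 35.4, 81.8 and 59.6 FPKM, with both adult libraries above both young ones. The polymerase Chsy1 was at 11.3, 15.3, 6.23 and 14.6 FPKM. Its injury ratio was 0.41 in young and 1.11 in adult cartilage, but the adult ratio was within 2-fold, at 0.81, in the lowest of the 3 other scalings. The second polymerase, Chsy3, was at 3.89, 5.43, 3.41 and 6.95 FPKM, also above its sham at both ages, with ratios of 0.40 and 0.85.

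Chpf and Chpf2 assist the polymerases. Chpf was at 29.7, 18.2, 26.1 and 23.2 FPKM, below its sham after injury at both ages, and Chpf2 at 35.1, 30.6, 16.0 and 27.9 FPKM, with adult sham lowest. Chpf therefore made up 45.8%, 37.3%, 62.1% and 45.4% of the pair. Chpf2 overlaps Smarcd3 on the opposite strand, which was at 7.32 to 10.2 FPKM, and how strand was used in counting is not given in the sources used here.

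The genes of dermatan sulfate stayed within 2-fold after injury. The epimerase Dse, which turns glucuronic into iduronic acid, was at 18.2, 15.4, 25.4 and 19.4 FPKM, and the dermatan 4-O-sulfotransferase Chst14 at 9.43, 6.95, 7.14 and 8.995 FPKM. Ust, which sulfates the uronic acid, was at 2.28, 1.77, 7.10 and 4.18 FPKM, below its sham at both ages, and both adult libraries were above both young ones. Chst15, which adds a second sulfate to 4-sulfated units, was at 4.04, 2.85, 2.94 and 2.23 FPKM and below its sham at both ages. The median injury ratio of the 15 chondroitin and dermatan genes was −0.19 in young and 0.28 in adult cartilage, the latter −0.05 after median-of-ratios scaling and −0.04 after quantile normalization.

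**Figure D3:**
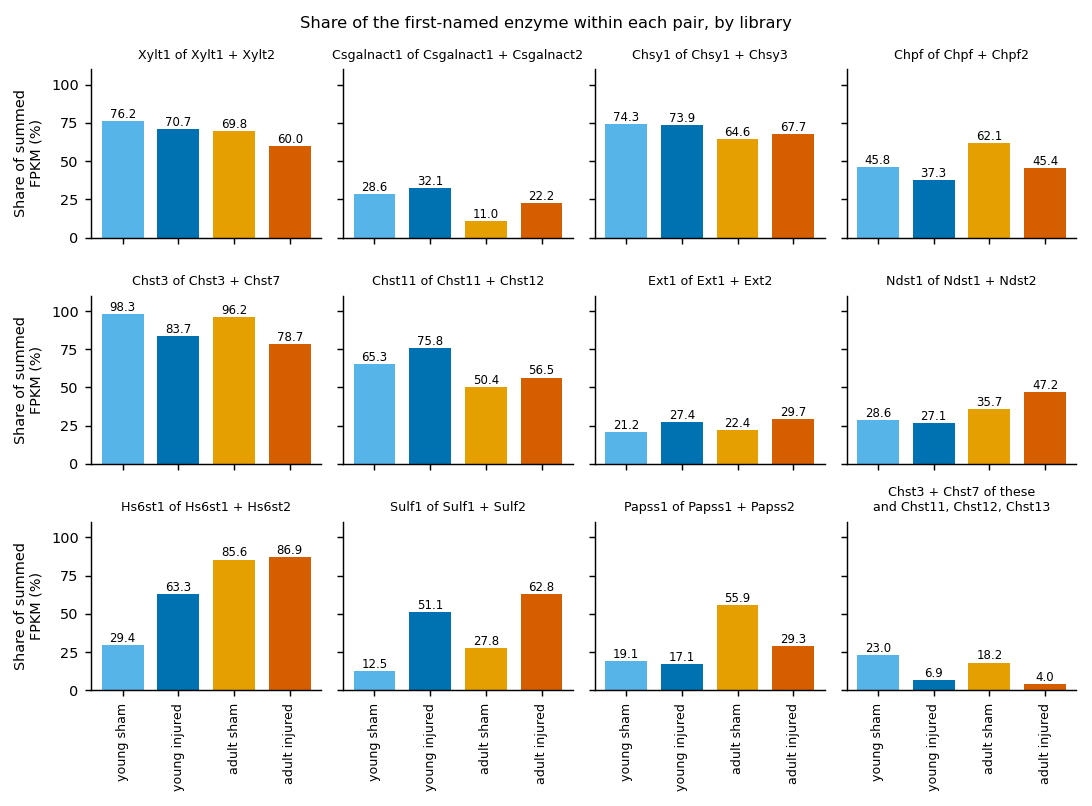
Share of the first-named gene in the summed FPKM of its pair, in percent, for 11 isoenzyme pairs and 1 grouping of sulfotransferases, with 1 bar per library. The share of Sulf1 is 51.1% and 62.8% in the injured libraries against 12.5% and 27.8% in the shams, and the last panel is 6.94% and 3.97% against 23.0% and 18.2%.

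In the heparan group Sulf2 had the largest injury ratio at both ages. Sulf1 and Sulf2 remove 6-O-sulfate from finished heparan chains outside the cell and so alter the binding of growth factors. Sulf2 was at 71.3 and 21.8 FPKM in the young sham and injured libraries and 33.7 and 11.8 FPKM in the adult ones. It was lower after injury at both ages, with log2 ratios of −1.66 and −1.44, and ranges over the 3 scalings of −1.80 to −1.68 and −1.76 to −1.38. Sulf1 was at 10.2, 22.8, 13.0 and 20.01 FPKM, and both injured libraries were above both shams. The log2 ratio of Sulf1 was 1.09 at the young and 0.59 at the adult age. In each sham Sulf2 exceeded Sulf1, and in each injured library Sulf1 exceeded Sulf2, with Sulf1 at 12.5%, 51.1%, 27.8% and 62.8% of the pair. Sulf2 overlaps Ncoa3 on the opposite strand. Ncoa3 was at 10.3, 14.4, 15.8 and 16.3 FPKM and did not follow the order of Sulf2.

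Within cells, 6-O-sulfate is added by Hs6st1 and Hs6st2. Hs6st2 was at 9.72 FPKM in young sham and 3.44 in young injured cartilage, a log2 ratio of −1.27. In the adult libraries it was at 0.598 and 0.850 FPKM, below both young ones, with a ratio of 0.21 that was below 0 after quantile normalization. Hs6st1 was at 4.05, 5.92, 3.54 and 5.64 FPKM, above its sham at both ages with ratios of 0.46 and 0.55. Hs6st1 thus made up 29.4% of the pair in the young sham library and 63.3% in its injured counterpart, against 85.6% and 86.9% in the adult libraries. Young sham was the only library in which Hs6st2 exceeded Hs6st1.

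The N-deacetylase and N-sulfotransferase Ndst1, which opens the sulfation of heparan chains, was at 3.56, 3.52, 3.92 and 8.98 FPKM. The first 3 libraries lay close together and adult injured cartilage was above all of them. Its injury ratio was −0.01 in young and 1.02 in adult cartilage, with an adult range of 0.66 to 1.19 over the 3 scalings, and the adult against young ratio of the injured libraries was 1.14. Its isoenzyme Ndst2 was at 8.89, 9.49, 7.05 and 10.05 FPKM, and the share of Ndst1 in the pair went from 28.6%, 27.1% and 35.7% in the other libraries to 47.2% in adult injured cartilage. Hs2st1, the 2-O-sulfotransferase, was at 5.25, 5.53, 2.63 and 5.87 FPKM, so that adult sham was low and the other 3 libraries were close together. Hs3st1, which places the rare 3-O-sulfate, was at 2.74, 1.74, 5.97 and 4.14 FPKM, below its sham at both ages, and both adult libraries were above both young ones. Glce, the C5-epimerase of heparan chains, was at 18.3, 11.2, 5.65 and 6.86 FPKM, with both adult libraries below both young ones.

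The polymerases and their relatives stayed within 2-fold after injury at both ages. Ext1 and Ext2 form the heparan polymerase, and loss of either human gene causes multiple exostoses of cartilage. Ext1 was at 13.4, 16.4, 12.5 and 20.7 FPKM, above its sham at both ages, and Ext2 at 49.9, 43.5, 43.2 and 49.1 FPKM, nearly level across the libraries. Extl1 was at 13.7, 8.15, 13.5 and 9.08 FPKM, with both injured libraries below both shams and log2 ratios of −0.69 and −0.52. Extl2 ranged from 9.53 to 16.6 FPKM and Extl3, which starts heparan chains, from 5.36 to 7.53 FPKM. The median of the 14 heparan genes was −0.12 in young and 0.28 in adult cartilage, the latter 0.05 after median-of-ratios scaling and 0.0011 after quantile normalization.

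Of the 4 roles, the supply genes showed the widest gap between the ages in their injury ratios, with a median difference of −0.97 between young and adult. The same median was −0.25 over the 10891 genes and −0.71 over the 14 chondrocyte markers. Slc26a2 carries sulfate into chondrocytes, Papss1 and Papss2 turn it into PAPS, Slc35b2 carries PAPS into the Golgi, and Ugdh makes the glucuronic acid donor. Papss2 was at 142.9 and 134.5 FPKM in the young sham and injured libraries and 17.6 and 62.5 FPKM in the adult ones. The young libraries were close together with an injury ratio of −0.09, whereas the adult ratio was 1.77, with 1.45 to 1.90 over the 3 scalings. Against young cartilage, Papss2 was 8.11-fold lower in the adult sham and 2.15-fold lower in the adult injured library. Slc26a2 had the same order, at 17.7, 14.7, 3.44 and 6.88 FPKM, with injury ratios of −0.25 in young and 0.83 in adult cartilage.

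Ugdh was at 67.8, 69.9, 33.9 and 69.4 FPKM, so that adult sham stood below the other 3 libraries, which lay close together. Its adult injury ratio of 1.01 came down to 0.68 in the lowest of the 3 scalings. Slc35b2, at 65.8, 63.9, 38.3 and 54.9 FPKM, and Papss1, at 33.7, 27.8, 22.4 and 25.8 FPKM, also had their lowest level in adult sham cartilage. The sum of the 5 genes was 328.0, 310.8, 115.6 and 219.5 FPKM. All 5 ratios were above 0 after injury in adult cartilage, as were those of 7815 of the 10891 genes. Of the 5, 2 were 2-fold or more higher, Papss2 and Ugdh, against 6.9% of all genes. The median log2 ratio of the 5 was 0.83, and 4 of the 5 ratios were above 0 after median-of-ratios scaling, with a median of 0.56, and after quantile normalization, with a median of 0.47. In young cartilage the ratios of the 5 lay between −0.27 and 0.04. Within the PAPS synthases, Papss1 made up 19.1%, 17.1%, 55.9% and 29.3%, so that adult sham was the only library in which it exceeded Papss2.

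The sequence upstream of the start site is shown for the genes with the largest injury ratios, Chst3 and Sulf2, which were lower at both ages, and Papss2, which was higher in adult cartilage. The sequences are the reference of RefSeq on GRCm38.p6 and not of these samples. The Chst3 window was chr10:60219261-60219510 on the minus strand, which also lies within the span of the RefSeq gene. The window of the upstream Sulf2 start was chr2:166155684-166155933 on the minus strand. For Papss2 the 204 bases before the gene, chr19:32595465-32595668 on the plus strand, are given. Capitals mark a GC box (GGGCGG or its reverse complement) or, as ACGTG, the core of a hypoxia response element. Sulf2 and Papss2 each have 2 annotated starts, and only the upstream one is printed. The downstream start of Sulf2 had ACGTG at −103 to −99. That of Papss2 had neither motif, but a SOX core (ACAAT or its reverse complement).
Chst3: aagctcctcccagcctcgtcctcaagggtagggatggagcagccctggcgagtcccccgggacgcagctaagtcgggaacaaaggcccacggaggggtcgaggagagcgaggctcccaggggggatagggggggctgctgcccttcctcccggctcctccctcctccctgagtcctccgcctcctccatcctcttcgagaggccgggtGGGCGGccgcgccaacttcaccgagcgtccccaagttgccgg
Sulf2: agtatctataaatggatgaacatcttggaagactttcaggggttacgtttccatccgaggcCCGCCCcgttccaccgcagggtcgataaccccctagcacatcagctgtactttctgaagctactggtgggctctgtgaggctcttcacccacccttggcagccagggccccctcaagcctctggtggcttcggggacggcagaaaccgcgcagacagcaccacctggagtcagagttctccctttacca
Papss2: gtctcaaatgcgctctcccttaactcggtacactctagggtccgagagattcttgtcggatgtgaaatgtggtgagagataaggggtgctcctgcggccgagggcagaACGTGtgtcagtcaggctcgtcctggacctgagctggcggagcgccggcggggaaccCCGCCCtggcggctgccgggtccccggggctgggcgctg

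For 32 of the 40 genes a promoter was present in the RefSeq table, with 40 windows of 250 bases among 32851 windows in all. Both strands were searched for 5 motifs. The GC box, common in promoters with many CpG, was in 60% of the 40 windows and 32.7% of all windows. ACGTG was in 20% and 16.6%, the SOX core ACAAT in 15% and 27.7%, the AP-1 site TGANTCA in 2.5% and 6.75%, and the GAS element TTCNNNGAA in 0% and 7.02%. The 40 windows had a median of 64.2% G and C against 52.4% over all windows. Windows of 1 gene can overlap, and a match describes letters in the window and not binding of a factor.

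Adult and young cartilage were then compared within the shams and within the injured libraries. In the shams 2 of the 40 genes, Csgalnact2 and Ust, were 2-fold or more higher in adult cartilage, against 2.66% of all genes. The 6 lower genes were Chpf2, Hs6st2, Sulf2, Glce, Slc26a2 and Papss2, against 10.6% of all genes and 14.6% of the genes at 1 FPKM or more in at least 1 library. Under both median-of-ratios scaling and quantile normalization 4 of the 40 were higher and 4 lower, and Chpf2 and Sulf2 came within 2-fold. In the injured libraries Chst12 and Ndst1 were higher, against 1.8%, and Hs6st2 and Papss2 lower, against 3.09%. Hs6st2 and Papss2 were thus lower in adult cartilage in both comparisons. Papss2 came to between −0.98 and −0.91 in the injured libraries under the 3 scalings, within 2-fold. The 2 comparisons share no library.

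The largest age ratios of the shams belonged to Papss2 at −2.95, Hs6st2 at −2.75, Slc26a2 at −2.07 and Glce at −1.54. In the injured libraries the same genes were at −1.09, −1.26, −0.997 and −0.64, nearer to 0 in each case. Of the 40 genes, 29 had an age ratio nearer to 0 in the injured libraries than in the shams, or 72.5%, and so did 70.3% of the 10891 genes, so that the share of these genes was near that of all genes. The median age ratio of the 40 genes in the shams was −0.25 as deposited, but 0.15 after median-of-ratios scaling and 0.06 after quantile normalization. That of the 10891 genes was −0.30, 0.07 and 0.02 in the same order. After median-of-ratios scaling 1065 of all genes were higher and 932 lower in adult sham cartilage, where 484 were higher and 1934 lower as deposited, and 10 of the 40 genes changed sign. In the injured libraries the median of the 40 genes was 0.07 as deposited, 0.17 after median-of-ratios scaling and 0.15 after quantile normalization. That of the 10891 genes there was −0.07, 0.03 and 0.01.

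By role, the 5 supply genes all had ratios below 0 between the shams, with a median of −0.98, as had 7576 of the 10891 genes. Of the 5, 2 were 2-fold or more lower, Papss2 and Slc26a2, against 10.6% of all genes. All 5 were also below 0 after median-of-ratios scaling, with a median of −0.55, and after quantile normalization, with a median of −0.74. In the injured libraries all 5 were below 0 as deposited, with a median of −0.21, and 3 of the 5 after median-of-ratios scaling. The 14 chondrocyte markers had a median of −1.58 between the shams, with 9 of them 2-fold or more lower and 3 higher in adult cartilage, and of −0.72 between the injured libraries, with 6 lower and 3 higher. Their part in the age ratios of the 40 genes was not tested. The chondroitin and dermatan genes had a median of −0.15 in the shams and 0.31 in the injured libraries, the heparan genes of −0.18 and 0.07, and the linker genes of −0.43 and 0.25. After median-of-ratios scaling the sham medians of the chondroitin and heparan genes changed sign, to 0.25 and 0.21, and that of the linker genes was −0.03.

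**Figure D4:**
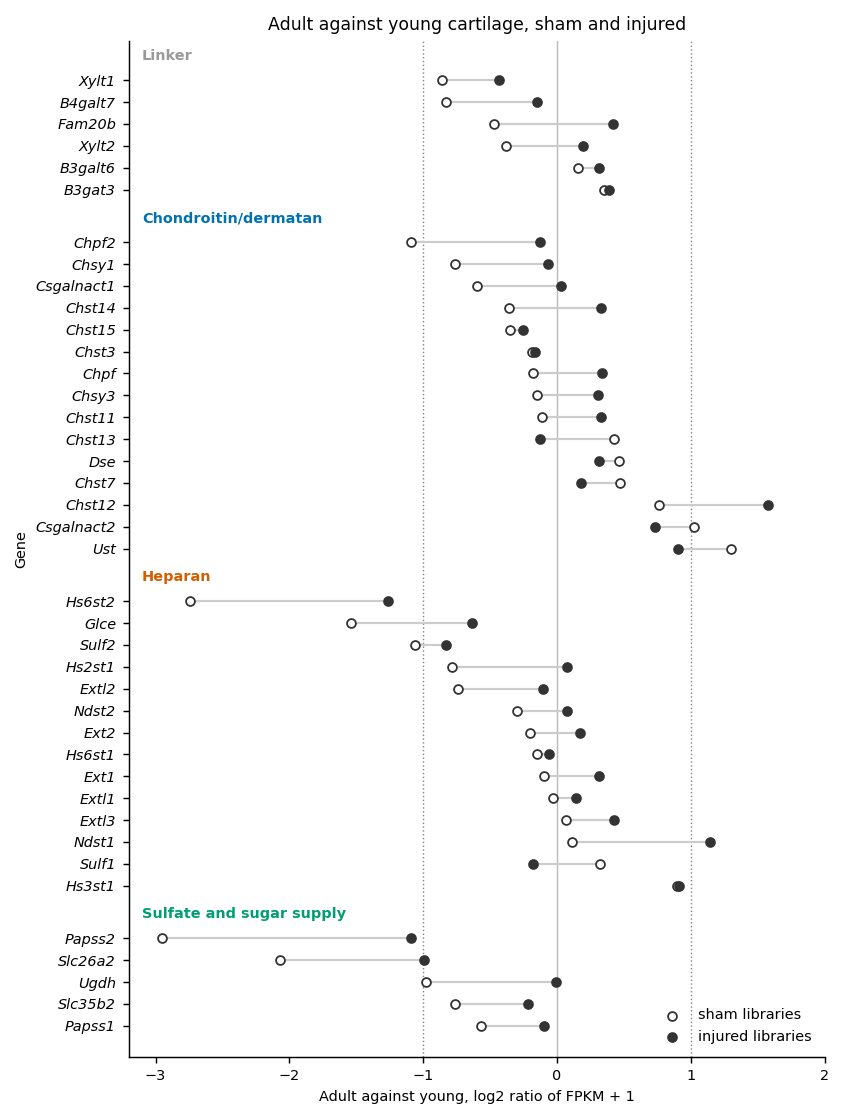
Log2 ratio of FPKM + 1, adult against young, for each of the 40 genes by role, with open circles for the shams and filled circles for the injured libraries. Dotted lines mark 2-fold. With values as deposited all 5 supply genes lie left of 0 in both, with Papss2 at −2.95 and −1.09, whereas Chst12 reaches 1.58 in the injured libraries.

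The rest of the pathway was read from lists of other synthesis genes (donor enzymes and transporters, and further sulfotransferases and modifying enzymes), keratan sulfate and hyaluronan enzymes, core proteins and degrading enzymes. Of 78 such genes measured, 73 were above 0 FPKM. After injury 5 were higher and 2 lower in young cartilage, and 11 were higher and 2 lower in adult cartilage, beside the 4.57% and 1.27% and the 6.9% and 1.46% of all genes. In the age comparisons 5 were higher and 11 lower in adult sham, and 6 higher and 2 lower in adult injured cartilage, beside 2.66% and 10.6% and 1.8% and 3.09% of all genes. Their median injury ratio was −0.06 in young and 0.24 in adult cartilage, close to that of the 10891 genes. After median-of-ratios scaling 7 were higher and 5 lower after adult injury, with a median of −0.05, and 12 higher and 7 lower in adult sham, and after quantile normalization 7 and 5, and 9 and 8.

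Among the donor enzymes Ugp2, which makes UDP-glucose for Ugdh, was at 43.6, 43.5, 16.2 and 42.6 FPKM, the same pattern across libraries as Ugdh. Impad1, the Golgi phosphatase that clears the by-product of sulfation, was at 20.05, 17.4, 6.99 and 14.1 FPKM. In both genes adult sham was the lowest library, but the list was not uniform. Uxs1 was highest in adult sham, at 54.7, 49.5, 70.4 and 46.7 FPKM, and Gfpt2 was at 38.5 and 37.6 FPKM in the young and adult shams. Of the 19 other synthesis genes above 0 FPKM, 7 were above and 12 below young sham in adult sham cartilage. Impad1, Uxs1 and Gfpt2 were named after their values were seen.

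The core proteins that carry the chains differed from each other. Aggrecan, Acan, the main chondroitin sulfate proteoglycan of cartilage, was at 405.3 and 487.1 FPKM in the young sham and injured libraries and 214.4 and 559.0 FPKM in the adult ones, with injury ratios of 0.26 and 1.38. By qRT-PCR, the paper instead reports less aggrecan mRNA 3 days after injury in young mice and no significant change in adult mice. Bgn, a small proteoglycan, lay between 2136 and 3467 FPKM and stayed within 2-fold in all comparisons. Decorin, Dcn, was at 1001, 2786, 1393 and 5555 FPKM, higher after injury at both ages, beside the higher sums of the fibroblast markers, of which 7 of 8 were above their sham at each age. Versican, Vcan, was at 22.7, 11.4, 3.77 and 9.50 FPKM, with log2 injury ratios of −0.94 in young and 1.14 in adult cartilage. Prg4, the surface lubricant, was at 2049, 421.3, 3565 and 2658 FPKM, with ratios of −2.28 and −0.42. Srgn, the proteoglycan of blood cell granules, was at 15.5, 93.3, 61.5 and 114.3 FPKM, with ratios of 2.52 and 0.88, beside the macrophage markers.

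Col9a2, a chain of type IX collagen, was at 587.4, 483.1, 169.0 and 352.3 FPKM, with an adult injury ratio of 1.06. Of the heparan sulfate carriers, Gpc6 was lower after injury at both ages, at 64.9, 25.98, 32.9 and 13.9 FPKM with ratios of −1.29 and −1.18. Sdc1 was at 25.1, 33.6, 14.3 and 38.4 FPKM, with an injury ratio of 1.37 in adult cartilage, and Col18a1 at 1.56, 10.99, 3.18 and 9.88 FPKM, with ratios of 2.23 and 1.38. Gpc6 thus had the order of Sulf2 across the 4 libraries, whereas Sdc1 had adult sham lowest and adult injured highest. The perlecan gene Hspg2 and the agrin gene Agrn, both named after their values were seen, stayed within 2-fold in all comparisons.

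**Figure D5:**
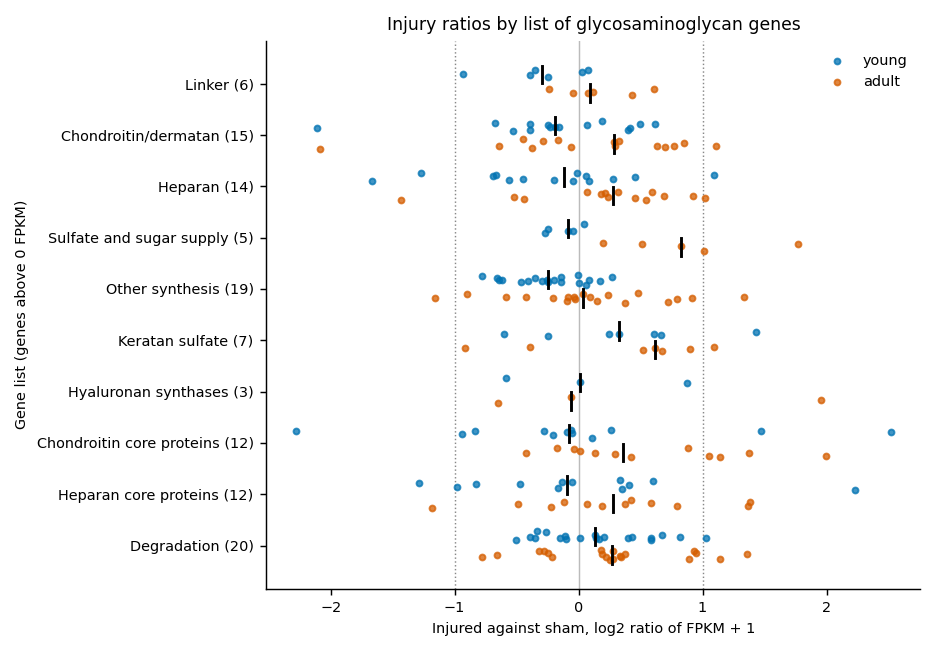
Log2 ratio of FPKM + 1, injured against sham, for the 40 genes by role and for 6 further lists, with young in blue and adult in orange and the number of genes above 0 FPKM in brackets. Each point is a gene, black bars are list medians, points are spread vertically for legibility only, and dotted lines mark 2-fold. The supply genes have medians of −0.09 and 0.83 at the young and adult age, whereas the degrading enzymes have medians of 0.13 and 0.27.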

How the data were processed

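RNA-seq libraries were strand-specific and poly-A selected, with 1 pooled library per group, and the authors deposited FPKM for 24532 genes by symbol and Entrez Gene identifier. The submitters' processing notes name HISAT, HISAT2 2.1.0, StringTie 1.3.4d, STAR, SAMtools and mm10, without their roles. FPKM were divided by length and library size by the authors, so that a library with a few very abundant genes has lower values for the rest. From the deposited FPKM, 4 comparisons were made by the log2 ratio of FPKM + 1 without rescaling, and 2-fold or more was counted. No test was possible with 1 library per group. The following alternatives were tried: 0.1 or 5 FPKM as pseudocount, leaving out genes under 1 FPKM in every library, equal sums (TPM), quantile normalization, median-of-ratios scaling, and a threshold of 1.5-fold or of 3-fold.

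All 40 genes are named. Other pathway genes are named if 2-fold or more in an injury comparison with a mean of at least 5 FPKM, as are Acan, Bgn, Dcn and Vcan, except that some of these other genes are not reported here. The members and lists were chosen with earlier results of these data known. Besides the markers given in the report, sums in the library order of the report were 863.8, 1508, 4770 and 7360 FPKM for 6 hypertrophic, 1229, 2507, 1624 and 1966 for 10 neutrophil, 257.2, 321.5, 1429 and 1332 for 7 osteoblast, 567.8, 551.5, 1412 and 386.5 for 7 muscle, and 9674, 18440, 6955 and 3031 for 7 erythroid markers. Depth was read from the steps of low values over 17546 genes and is conditional on 1 step being 1 fragment. Near-identical sequence was checked with transcript words of 31 bases, and coordinates and promoters came from RefSeq on GRCm38.p6. Calculations used Python 3.11.15, numpy 2.4.6, pandas 2.3.3 and matplotlib 3.10.9, and were tested on simulated data.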

Additional observations from a re-analysis of the deposited data

Results flagged for a closer look

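None of the 40 genes had injury ratios of opposite sign that were both 1.5-fold or more. Versican, Vcan, a chondroitin sulfate core protein of immature and provisional matrix, was the single gene of the pathway lists that did. Its log2 ratio of FPKM + 1 was −0.94 in young and 1.14 in adult cartilage. Over the 3 other scalings the young ratio lay between −1.08 and −0.95 and the adult ratio between 0.78 and 1.32. The difference between the ages was not tested, since each group was 1 library.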

How the results depend on the processing

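No paired analysis was possible because each group was 1 library. Leaving out a library ends the comparison it belongs to. The filter of 1 FPKM, which leaves out Chst13, changed none of the counts of members past 2-fold. A pseudocount of 0.1 FPKM gave 3 members higher after injury in young and 4 higher in adult than in young injured cartilage. A pseudocount of 5 FPKM gave 0 members higher after injury in young and 1 in adult cartilage, 0 higher in adult sham, and 1 higher and 1 lower in adult injured cartilage. Rescaling to the same sum gave 4 higher and 1 lower in adult injured cartilage and 4 lower after young injury, with Fam20b added. It gave 6 higher after adult injury and 7 lower in adult sham. Of all genes, 625 were higher and 619 lower, 430 lower, 2009 higher and 2707 lower in the same order. With median-of-ratios scaling, 1 member was higher after adult injury and 4 were higher in adult sham, where the median became 0.15. In adult injured cartilage 1 was lower. Of all genes, 802 were higher, 1065 higher and 460 lower in the same order. With quantile normalization, 1 member was higher after adult injury, with a median of −0.0013, and 4 were higher in adult sham, with a median of 0.0552. In adult injured cartilage 4 were higher and 1 lower. Of all genes, 725 were higher, 916 higher, and 408 higher and 463 lower in the same order.

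At 1.5-fold, 2 members were higher and 7 lower after injury in young cartilage. In adult cartilage 13 members were higher after injury, and Chst3, Sulf2 and Ust were lower. In the age comparisons, 4 were higher and 14 lower in adult sham and 5 higher and 5 lower in adult injured cartilage. At 3-fold the counts were 0 higher in young injury and 1 higher and 1 lower in adult injury. They were 0 higher and 3 lower in adult sham, and 0 higher and 0 lower in adult injured cartilage. All genes were not counted at these thresholds or at the other pseudocounts, so the counts of members there have no share beside them. Calls of Chst3 and Papss2 after adult injury, of Chst3 and Sulf2 after young injury, and of Papss2, Hs6st2 and Slc26a2 between the shams were kept under all 8 alternatives. Chsy1, Ndst1 and Ugdh after adult injury and Chpf2 and Sulf2 between the shams came within 2-fold under both median-of-ratios scaling and quantile normalization. The cause was not tested. Depth limits Chst7 and Chst13, which rest on an estimated 101.1 fragments or fewer per library. It also limits Hs3st1, at an estimated 76.9 fragments in young injured cartilage. Some members have no estimate of fragments, among them Hs6st2, which was at 0.598 and 0.850 FPKM in the adult libraries.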

Other observations

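Keratan sulfate is a sulfated chain apart from chondroitin, dermatan and heparan sulfate, and its chains were not measured here. Of 8 keratan sulfate genes measured, 7 were above 0 FPKM, with a median adult against young ratio of −0.16 in the shams. Of these, 2, both sulfotransferases, were 2-fold or more higher in adult sham cartilage, against 2.66% of all genes. Lower was 1 of the 7, against 10.6% of all genes. The sulfotransferase Chst5 was at 2.85 and 2.24 FPKM in the young sham and injured libraries and 49.2 and 25.6 FPKM in the adult ones, a log2 ratio of FPKM + 1 of 3.70 between the shams and 3.04 between the injured libraries. Chst1, the galactose 6-O-sulfotransferase of the same chain, was at 0.754, 3.73, 24.04 and 18.1 FPKM, with age ratios of 3.84 and 2.01. Its injury ratio was 1.43 in young and −0.39 in adult cartilage. B4galt1, a galactosyltransferase, was at 10.6, 17.3, 9.37 and 21.1 FPKM and above its sham at both ages, with ratios of 0.67 and 1.10. Chst5 was named after its values were seen, and reads shared with its near relatives were not examined.

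Of the hyaluronan synthases, Has1 was at 1.95, 4.39, 3.83 and 17.7 FPKM, with injury ratios of 0.87 in young and 1.95 in adult cartilage. Has2 was at 11.4, 7.27, 10.2 and 6.135 FPKM, below its sham at both ages with ratios of −0.58 and −0.65. Among 20 degrading enzymes, 1 was 2-fold or more higher after injury in young and 2 in adult cartilage, against 4.57% and 6.9% of all genes. None was lower at either age, against 1.27% and 1.46% of all genes. Heparanase, Hpse, which cuts heparan chains, was at 1.02, 3.12, 0.344 and 2.44 FPKM, with ratios of 1.03 and 1.36. Has2 and Hpse were named after their values were seen. The summed macrophage markers were 1957 and 1691 FPKM in the injured libraries against 196.4 and 330.2 in the shams, and their part in the level of the degrading enzymes was not tested.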
